A study of Danio rerio with 15 samples.

Results

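The circadian clock genes of zebrafish were followed in whole larvae whose parents had eaten arsenic. A list of 46 names, 2 of them given as identifiers, was matched to the count table by identifier, by gene symbol, or by the symbol in capitals without the letter of the zebrafish copy. It gave 41 of the 32520 genes in the table. Several zebrafish copies share 1 capital symbol, so 8 of the 41 are told apart here by the last digits of their Ensembl identifiers. Adults (genotype WT) were fed for 60 days on blackworms kept for 14 days in sodium arsenite at 0, 2.5 or 5.0 mg/L, which defines the Control, Low and High groups. Arsenic in the worms was below 0.05 µg/g in the Control diet. It was 32.4 µg/g in the Low diet by the sample labels (33.42 by the protocol) and 72.47 µg/g in the High diet. The offspring, raised in arsenic-free medium on a clean diet, were collected whole at 5 days post fertilization, with 5 libraries per group and the number 20 beside the larvae. The labels do not say that the libraries came from separate clutches or parents, and a p-value here reflects spread among the libraries as such, which may be technical. They give neither the hour of collection nor the light schedule.

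The vertebrate clock is a loop of transcription. CLOCK and BMAL proteins pair and switch on genes through E-box motifs, among them the Period and Cryptochrome genes, whose proteins return to the nucleus and repress CLOCK and BMAL. Another loop sets NR1D (REV-ERB) repressors against ROR activators at the BMAL genes, and a further one sets the activators DBP, TEF and HLF against the repressor NFIL3 at D-box motifs. In zebrafish, cells of most tissues carry a clock that light can set directly, and per2, cry1a and cry5 are among the genes that light induces.

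Total counts ran from 21.2 to 59.9 M per library. Levels are given as CPM, the read counts relative to the library's total, scaled between libraries with TMM factors. Whole larvae hold many organs, and libraries differed widely in transcripts of the gut, liver and pancreas. The mean log2 CPM of 36 digestive markers was 7.16, 4.44 and 3.32 in Control 2, 4 and 1 and 0.94 and -0.42 in Control 3 and 5. Among the Low libraries, Low 5 reached 6.4 while Low 1 to 4 had -1.13 to 1.8. Among the High libraries, High 3 had -0.52 and the others 4.12 to 6.86. Low 5 and High 3 therefore stood apart from their groups. The counts of clock genes that passed, and the values of some single genes, are also given without them.

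Of the 41 clock genes, 37 had enough counts to be tested. The other 4 were npas2, a relative of CLOCK, bmal2, rorca and the gene with the symbol NFIL3. They had 13, 20, 2 and 26 counts in all 15 libraries together, with at most 5 in any library. At this depth no difference in them was detectable.

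**Figure D1:**
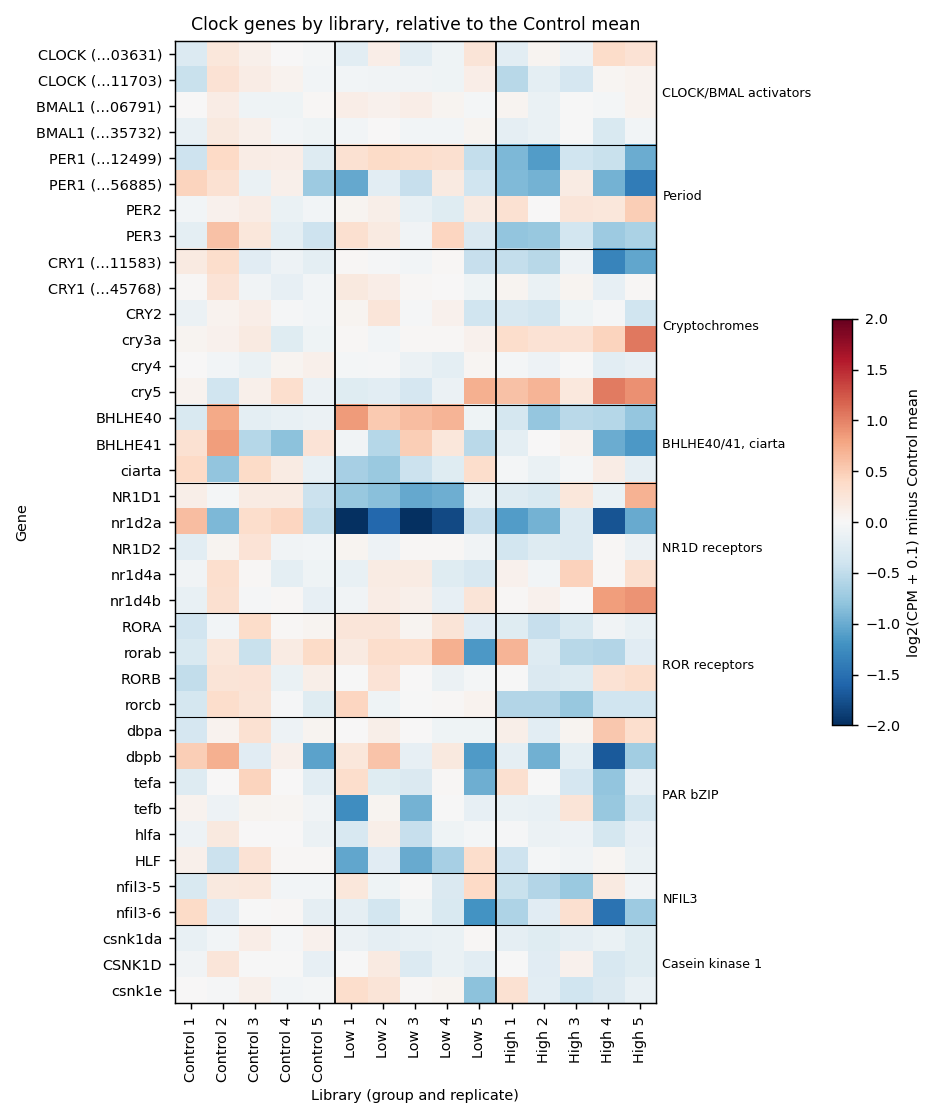
Level of the 37 tested clock genes (rows, grouped by role) in each of the 15 libraries (columns), as log2(CPM + 0.1) minus the mean of the Control libraries. Red is above and blue below that mean, and colours end at 2 in either direction. The CLOCK and BMAL1 rows are mostly pale, with CLOCK (ENSDARG00000011703) bluer in High 1, at 28.7 CPM. nr1d2a is blue to varying depth across Low and High, more deeply in Low 1 to 4 than in Low 5, and also in Control 2 and 5. PER1 (ENSDARG00000012499), PER3 and BHLHE40 are blue across High, in some cells faintly.

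Between the 2 arsenic diets, High against Low, the larger parental dose is set against the smaller one. In High larvae 4 clock genes fell: BHLHE40, 1 of the PER1 copies, PER3 and rorcb. BHLHE40, PER1 and PER3 encode repressors of the CLOCK and BMAL pair, and rorcb encodes a receptor of the ROR family. None of the 37 rose (0.672% of all genes tested did), and the activators CLOCK and BMAL1 did not pass. Other methods also called genes that were higher in High: DESeq2 called 7 clock genes, 3 of them higher (cry3a, cry5 and NR1D1), with 7.58% of all genes called. limma voom was run with a weight fitted to each library. It called 12, 5 of them higher (cry3a, cry5, NR1D1, nr1d2a and HLF), with 21.2% of all genes called. These 4 of 37 compare with 1.71% of all 22012 genes tested that passed edgeR's quasi-likelihood test in either direction after Benjamini-Hochberg adjustment, and 1.04% that fell. All members were chosen with earlier results of these data known, and BHLHE40 and the PER1 copy were listed by identifier, so the count is not independent evidence. The median log2 fold change of the 37 genes was -0.08, against -0.01 over all genes tested. At an unadjusted p under 0.05 there were 10 clock genes, against 21.9% of all genes. The High and Low ranges did not overlap for 3 clock genes that were lower, PER3, BHLHE40 and rorcb, and 1 that was higher, cry3a, while 2.43% of all genes lay wholly lower and 1.88% wholly higher.

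BHLHE40 (ENSDARG00000004060), also known as DEC1, encodes a repressor that binds E-boxes and answers quickly to light, hormones and stress in mammals. It had 37.9, 28.1, 33.2, 32.4 and 28.2 CPM in High 1 to 5, against 86.9, 69.2, 73.8, 77.5 and 45.3 CPM in Low 1 to 5. Every High library lay below every Low library, and Low 5 was the lowest of Low. The log2 fold change was -1.14 (SE 0.21, edgeR adjusted p = 0.018), a ratio of 0.453. In Control the values were 39.2, 81.9, 42.2, 43.5 and 44.7 CPM, so Control 2 reached the level of Low while the other Control libraries lay between the groups. High was also below all of Control, although that difference did not pass, at -0.65 on the log2 scale (SE 0.20, edgeR adjusted p = 0.13), and at -0.41 without Control 2.

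The PER1 copy ENSDARG00000012499 encodes a Period protein, the partner of the cryptochromes in the repressor complex. Its level was 4.41, 3.75, 6.24, 6.08 and 4.1 CPM in High 1 to 5, against 10.2, 10.8, 10.6, 10.3 and 5.91 CPM in Low 1 to 5. Low 1 to 4 lay close together and above all of High, while Low 5 lay within the High range. The log2 fold change was -0.96 (SE 0.21, edgeR adjusted p = 0.034). In Control it had 6.17, 10.9, 9.2, 9.05 and 6.9 CPM, and High against Control gave -0.78 (SE 0.21, edgeR adjusted p = 0.09).

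PER3, another Period gene, had 7.27, 7.44, 9.77, 7.57 and 8.11 CPM in High 1 to 5, against 15.8, 14.4, 12, 17.1 and 10.3 CPM in Low 1 to 5. The ranges did not overlap, with High 3 and Low 5 nearest to each other. Its log2 fold change was -0.79 (SE 0.19, edgeR adjusted p = 0.047). Control values were 11, 19, 14.8, 11 and 9.48 CPM, again highest in Control 2, and High against Control gave -0.70 (SE 0.19, edgeR adjusted p = 0.092).

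The ROR receptors activate BMAL genes through the same sites that NR1D receptors repress. For rorcb (ENSDARG00000017780) the libraries High 1 to 5 had 77.7, 78.2, 69.3, 88.9 and 88.8 CPM, against 158, 109.8, 116, 119 and 123 CPM in Low 1 to 5. All High libraries lay below all Low ones and also below all of Control, at 91.9, 149.7, 139, 115 and 99 CPM. The log2 fold change of High against Low was -0.63 (SE 0.14, edgeR adjusted p = 0.039), and that of High against Control was -0.56 (SE 0.14, edgeR adjusted p = 0.078). In this gene Low 5 sat among the other Low libraries.

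Libraries of all 3 groups shared 1 estimate of the spread, so each library bears on the count of 4. With Low 5 left out it was 11, of which 4 were higher, and 17% of all genes passed. Beside the 4 called with every library in, the CRY1 copy ENSDARG00000011583, CRY2 and RORA were then lower. The higher ones were cry3a, cry5, NR1D1 and HLF. With both Low 5 and High 3 left out the same 11 passed, with 19.9% of all genes. The count became 0 without Low 1, Low 3, Low 4 or High 2. In those fits 72, 39, 63 and 56 of all genes passed, against 377 with every library in. The clock gene count was 1 without Control 4, High 1, High 4 or High 5, with 198, 129, 113 and 200 of all genes. Without Low 2 it was 2, with 231 of all genes. Of 15 fits that each left out 1 library, BHLHE40 was called in 11, the PER1 copy and rorcb in 6 each, and PER3 in 4. The 4 log2 fold changes stayed between -1.27 and -0.53 in those fits, and the highest adjusted p was 0.058 for BHLHE40 without Low 3. For the PER1 copy it was 0.1 without Low 3, for PER3 0.13 without Low 4 and for rorcb 0.11 without Low 1.

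**Figure D2:**
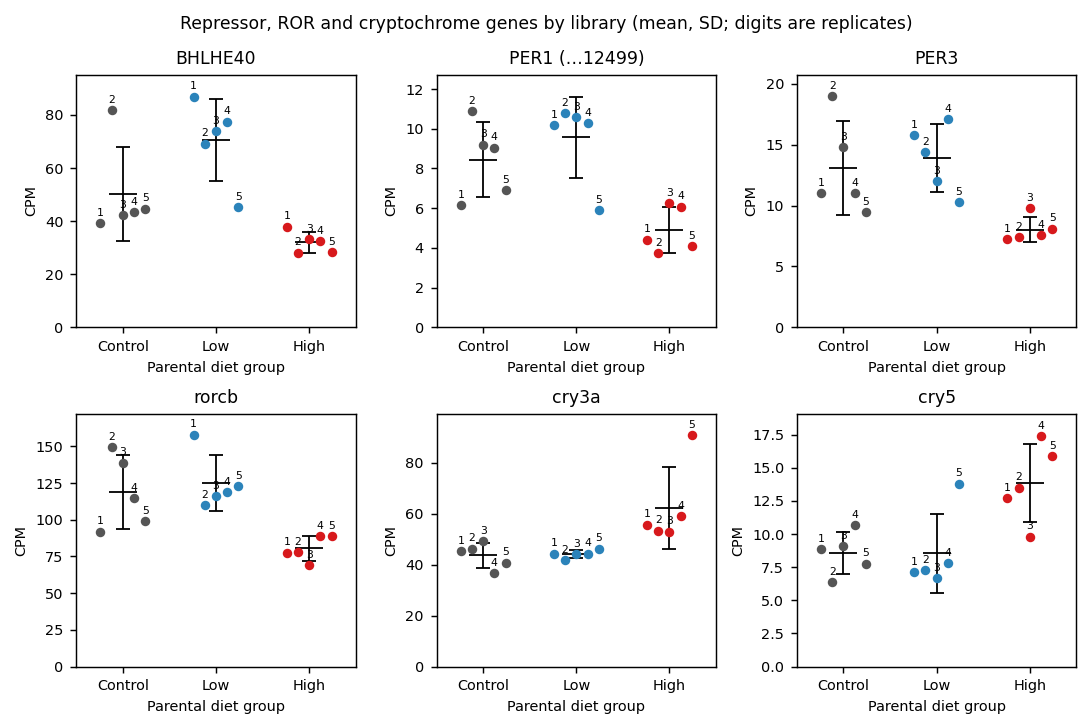
CPM of 6 clock genes in each library, by parental diet group; digits are replicate numbers, horizontal bars are means and error bars SD (n = 5 each). BHLHE40, PER3 and rorcb have no High library above any Low library, PER1 (ENSDARG00000012499) overlaps only at Low 5, and cry3a, with High 5 at 90.9 CPM, has no High library below any Low one; in cry5 Low 5, at 13.8 CPM, lies within the High range. Neither cry gene passed edgeR's quasi-likelihood test with all libraries in, while DESeq2 and limma voom called both in High against Low.

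Digestive transcripts differed too, with median log2 fold changes of 1.9, 2.39 and 1.55 for the pancreas, liver and intestine lists in High against Low. Of these, 0 of 9, 0 of 13 and 0 of 14 tested genes passed edgeR's test, and in all of them the ranges overlapped. Each group held both digestive-poor and digestive-rich libraries. With the digestive level as a covariate rorcb alone passed, at -0.76 (edgeR adjusted p = 0.044), while the count over all genes fell to 60, against 377 without it. The fitted log2 fold change of BHLHE40 was -1.16 (edgeR adjusted p = 0.055) in that fit. For the PER1 copy it was -0.86 (adjusted p = 0.12) and for PER3 -0.77 (adjusted p = 0.13). In whole larvae fewer cells of a kind and less RNA per cell cannot be told apart.

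**Figure D3:**
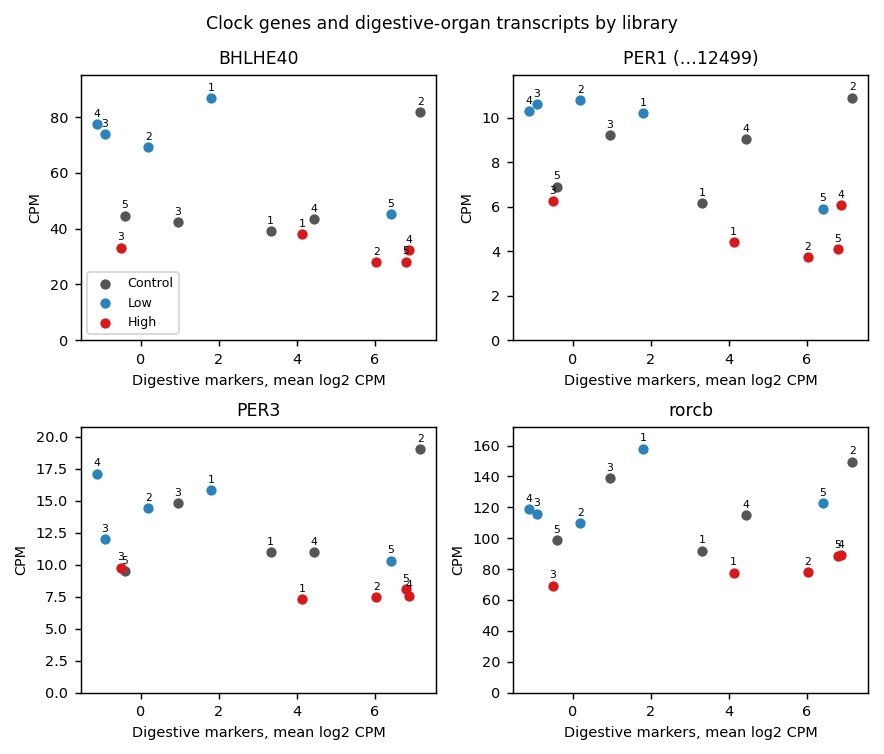
CPM of BHLHE40, PER1 (ENSDARG00000012499), PER3 and rorcb (vertical axes) against the mean log2 CPM of 36 digestive markers (horizontal axes) in each library, coloured by group and marked with the replicate number. High 3 lies at -0.52 among the digestive-poor Low libraries and Low 5 at 6.4 among the digestive-rich High libraries. High 3 is below Low 1 to 4 in each panel. Low 5 is within the High range for PER1, at 5.91 CPM. It is the lowest of Low for BHLHE40 and PER3, at 45.3 and 10.3 CPM, but above all of High. For rorcb, at 123 CPM, it sits among the other Low libraries.

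The remaining Period genes did not pass. The PER1 copy ENSDARG00000056885 was scarce, at 0.45 to 1.52 CPM in High and 0.616 to 1.54 CPM in Low (11 to 50 counts per library over all groups), with a log2 fold change of -0.41 (SE 0.35). PER2, which light induces in zebrafish, pointed the other way from PER1 and PER3. It averaged 123 ± 14.6 CPM in High and 103 ± 12.4 CPM in Low (SD, n = 5 each), and the fitted difference was 0.26 on the log2 scale (SE 0.10, edgeR adjusted p = 0.17). All 5 High libraries were above the Low mean.

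Cryptochromes fall into repressors of the CRY1 and CRY2 kind and other members of the photolyase family. The cryptochrome with the smallest p was cry3a, which had 55.7, 53.4, 53, 59 and 90.9 CPM in High 1 to 5, against 44.3, 41.9, 44.2, 44.3 and 46.3 CPM in Low 1 to 5. High lay above Low in every library, and above Control, at 45.3, 46.3, 49.4, 36.8 and 40.8 CPM. Its log2 fold change was 0.50 (SE 0.13, edgeR adjusted p = 0.068) against Low and 0.51 (SE 0.13, edgeR adjusted p = 0.089) against Control, so it did not pass in either. Without High 5 the value against Low was 0.33. Without Low 5 it was 0.51 (edgeR adjusted p = 0.031). Of the 15 fits that left out 1 library, only this 1 called cry3a against Low. The highest adjusted p among them was 0.16, without Low 3. With the digestive covariate the value against Low was 0.41 (edgeR adjusted p = 0.22).

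Beyond the genes the naming rule gave, a few more were picked after their values were seen. Among them, cry5, the gene of the 6-4 photolyase that repairs ultraviolet damage, averaged 13.9 ± 2.95 CPM in High and 8.52 ± 2.96 CPM in Low (SD, n = 5 each; log2 fold change 0.70, SE 0.21, edgeR adjusted p = 0.087). With the digestive covariate it was 0.46 (edgeR adjusted p = 0.27). Low 5, at 13.8 CPM, lay within High, while Low 1 to 4 ran from 6.66 to 7.81 CPM. Without Low 5 the log2 fold change of cry5 was 0.94 (edgeR adjusted p = 0.0061). This was the 1 of 15 fits leaving out 1 library that called cry5 in High against Low. The CRY1 copy ENSDARG00000011583 had 31.6, 29.9, 41, 17.5 and 21.4 CPM in High 1 to 5, against 44.5, 43.1, 42.4, 44.5 and 31.8 CPM in Low 1 to 5. Its log2 fold change was -0.55 (SE 0.20, edgeR adjusted p = 0.13), and -0.63 without Low 5 (edgeR adjusted p = 0.047). The fit without Low 5 was again the 1 of 15 that called it in High against Low. With the digestive covariate the value was -0.42 (edgeR adjusted p = 0.34). High 3 lay within the Low range, and Low 5 within that of High. The other CRY1 copy, ENSDARG00000045768, averaged 113 ± 8.45 CPM in High and 121 ± 9.22 CPM in Low, with a log2 fold change of -0.09 (SE 0.09). CRY2, at -0.24 (SE 0.12), and cry4, at -0.04 (SE 0.07), did not pass either. Of the other repressors, BHLHE41 was at -0.35 (SE 0.36) and ciarta, whose mammalian relative represses CLOCK and BMAL, at 0.25 (SE 0.25).

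Set against each other, the limbs of the loop looked as follows in High against Low. In the positive limb (CLOCK, BMAL and npas2) 0 of the 4 tested genes passed, with log2 fold changes of -0.16 to 0.10 and a median of -0.10. In the negative limb (Period, Cryptochrome, BHLHE and ciarta) 3 of 13 fell and 10 did not pass, with a range of -1.14 to 0.70 and a median of -0.24. Over all genes tested 1.04% fell, and 2 of these 3, BHLHE40 and the PER1 copy, were the members listed by identifier. The 13 also hold cry4 (-0.04) and cry5 (0.70), which are not of the CRY1 and CRY2 kind. They hold cry3a (0.50) as well, and whether it is of that kind was not settled here. The range and median of the negative limb therefore rest partly on cryptochromes outside the repressors, cry4 and cry5. Arranged by the phase at which they usually peak, 3 of 21 morning genes fell and 18 did not pass (median -0.01), and 0 of 6 tested evening genes passed (median -0.10). Of the 21 morning genes 10 had fold changes above 0 and 11 below. Both CRY1 copies are among these 21, although only cry1b was listed as a morning gene, because the copies share a symbol.

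**Figure D4:**
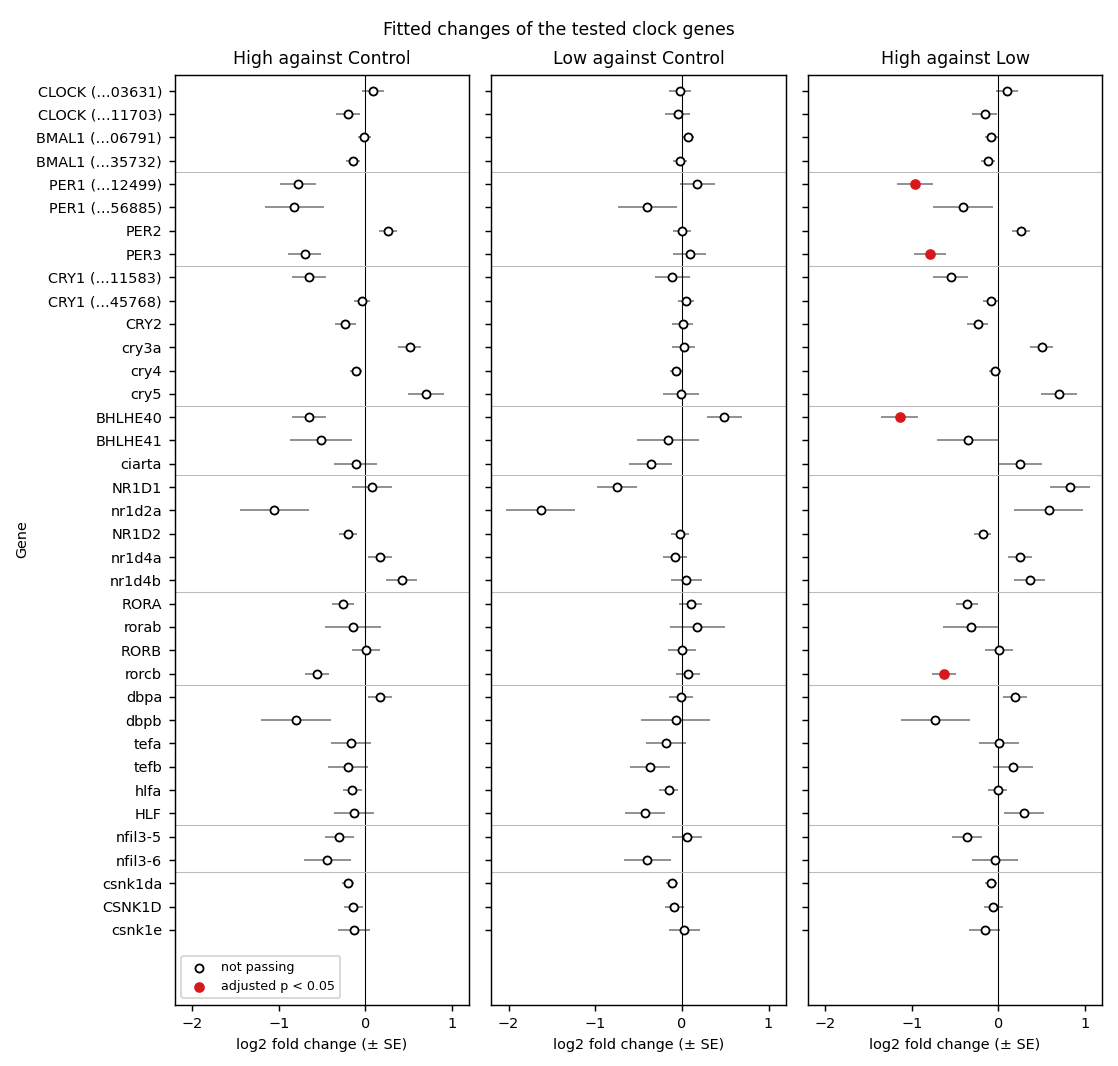
Fitted log2 fold changes (horizontal axes, points, with SE bars) of the 37 tested clock genes in the 3 comparisons, each given as the first group against the second. Filled red points have an edgeR adjusted p below 0.05: PER1 (ENSDARG00000012499), PER3, BHLHE40 and rorcb in High against Low, and none in the other 2 panels.

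None of the CLOCK and BMAL1 copies passed edgeR's quasi-likelihood test in any of the 3 comparisons. Of all genes tested, 1.71% passed in High against Low, 0.522% in High against Control and 0% in Low against Control. The BMAL1 copy ENSDARG00000035732 had 38.3, 39.7, 43.3, 35.1 and 42.1 CPM in High 1 to 5, 42.2, 43.8, 41.8, 41.9 and 45.5 CPM in Low 1 to 5, and 39.4, 49.9, 46.6, 41.9 and 41.1 CPM in Control 1 to 5. All groups overlapped, and the log2 fold changes were -0.12 (SE 0.08) for High against Low, -0.14 (SE 0.08, edgeR adjusted p = 0.41) for High against Control and -0.02 (SE 0.08) for Low against Control. The other BMAL1 copy, ENSDARG00000006791, ran from 84.2 to 102 CPM over all libraries. The CLOCK copies ran from 36.2 to 56.5 CPM (ENSDARG00000003631) and from 28.7 to 51.4 CPM (ENSDARG00000011703). The SE of these fits was 0.07 to 0.14 on the log2 scale.

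In the comparison of High with Control, which addresses the larger dose, 0 of 37 clock genes passed edgeR's quasi-likelihood test. Over all genes tested 0.522% passed, 0.191% higher and 0.332% lower. At an unadjusted p under 0.05 there were 12 of the 37, against 15.8% of all genes tested, and DESeq2 called 6, with 4.19% of all genes called: the PER1 copy ENSDARG00000012499, PER3, the CRY1 copy ENSDARG00000011583 and rorcb lower, and cry3a and cry5 higher. limma voom called 1, that PER1 copy, with 1.25% of all genes. The ranges of High and Control did not overlap for BHLHE40 and rorcb, both lower, and for cry3a, which was higher; over all genes such gaps made up 2.39% lower and 2.02% higher. Of the 37 fold changes 28 were below 0, with a median of -0.15, against -0.02 over all genes tested. Without High 3 the CRY1 copy ENSDARG00000011583 passed, among 362 genes in all. Without both Low 5 and High 3, an option added after the data were seen, 6 clock genes and 3.32% of all genes did.

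Among the casein kinase 1 genes, whose enzymes phosphorylate Period proteins and set the pace of the clock, csnk1da had the smallest p. It had 123, 118, 124, 128 and 118 CPM in High 1 to 5, against 126, 134, 154, 138 and 149 CPM in Control 1 to 5. High 4 and Control 1 overlapped, and the log2 fold change was -0.20 (SE 0.07, edgeR adjusted p = 0.2). CSNK1D and csnk1e, at -0.14 (SE 0.11) and -0.13 (SE 0.18), did not pass.

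NFIL3 proteins repress D-box genes and oppose DBP, TEF and HLF. For nfil3-5 the values were 31.8, 28.7, 25.9, 48.7 and 41.3 CPM in High 1 to 5, against 35.1, 49.7, 50, 41.6 and 41.4 CPM in Control 1 to 5. High 1 to 3 lay below Control and High 4 and 5 within it, and the log2 fold change was -0.30 (SE 0.17, edgeR adjusted p = 0.42). Against Low it was -0.36 (SE 0.17, edgeR adjusted p = 0.24). nfil3-6 spread widely within High, at 6.59 to 23.1 CPM, against 15.8 to 24 CPM in Control.

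Over all genes, 0.522% passed edgeR's quasi-likelihood test in High against Control, 0% in Low against Control and 1.71% in High against Low. In the PAR bZIP genes, the D-box activators, 0 of 6 passed that test in any comparison. The one with the smallest p, dbpb, was scarce, at 1.49, 0.827, 1.48, 0.464 and 1.02 CPM in High 1 to 5, against 2.44, 2.87, 1.44, 1.83 and 0.759 CPM in Control 1 to 5, from 10 to 74 counts per library over all groups. The groups overlapped, and the log2 fold change was -0.80 (SE 0.40, edgeR adjusted p = 0.35). dbpa ran from 9.65 to 16.3 CPM in High and from 8.84 to 13.9 CPM in Control. By limma voom 1 of the 6, HLF, was called lower in Low against Control and higher in High against Low.

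The comparison of Low with Control asks what the smaller dose left in the offspring. By edgeR's quasi-likelihood test 0 of 37 clock genes passed, as did 0% of all genes tested. At an unadjusted p under 0.05 there were 3, nr1d2a, NR1D1 and BHLHE40, against 9.53% of all genes; limma voom called these 3 and HLF (6.5% of all genes), and DESeq2 called nr1d2a (0.291% of all genes). No clock gene had ranges that did not overlap, against 0.495% of all genes higher and 0.813% lower. Without Low 5 there were 3 calls, nr1d2a, NR1D1 and HLF, all lower, with 2.28% of all genes called. Without both Low 5 and High 3 there were 2, nr1d2a and NR1D1, with 2.5% of all genes called. Tissue markers differed between these groups too: 9 of 9 pancreas, 13 of 13 liver and 14 of 14 intestine genes had fold changes below 0 in Low against Control, with medians of -1.79, -1.08 and -0.66, although 0 passed. The mean log2 CPM of 9 skeletal muscle markers was 7.89 to 8.58 in Low 1 to 4 and 10.46 in Low 5, against 8.92 to 9.78 in Control. With the digestive covariate 0 clock genes passed, but 0 had passed without it, so that count cannot show the part of these tissues. The log2 fold changes in that fit were -1.62 for nr1d2a, -0.68 for NR1D1 and 0.50 for BHLHE40, against -1.63, -0.75 and 0.49 without it. The part of muscle was not tested.

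nr1d2a is a receptor gene of the REV-ERB family. It had 24.9, 40.6, 22.6, 34.5 and 87.5 CPM in Low 1 to 5, against 184, 64.9, 153, 163 and 85.3 CPM in Control 1 to 5. Low 1 to 4 lay below all of Control, and Low 5 was above Control 2 and 5. The log2 fold change was -1.63 (SE 0.40, edgeR adjusted p = 0.43), and -2.08 without Low 5 (edgeR adjusted p = 0.025). Of the 15 fits that left out 1 library, only the 1 without Low 5 called nr1d2a in Low against Control. High 1 to 5, at 55.3, 62.4, 100.1, 36.4 and 59.6 CPM, lay below the Control mean too (-1.05, SE 0.40, edgeR adjusted p = 0.22).

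NR1D1, the first REV-ERB gene, had 2.1, 1.99, 1.74, 1.8 and 3.32 CPM in Low 1 to 5, against 3.95, 3.55, 4.1, 4.1 and 2.68 CPM in Control 1 to 5. Low 1 to 4 were below every Control library, and again Low 5 was not. The log2 fold change was -0.75 (SE 0.23, edgeR adjusted p = 0.43) and -0.94 without Low 5 (edgeR adjusted p = 0.043). That was the 1 of 15 fits leaving out 1 library that called NR1D1 in Low against Control. High had 2.93 to 5.94 CPM, which gave 0.08 (SE 0.23) against Control on the log2 scale and 0.83 (SE 0.23, edgeR adjusted p = 0.075) against Low. NR1D2, nr1d4a and nr1d4b had log2 fold changes of -0.08 to 0.05 in Low against Control.

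HLF and tefb encode D-box activators. HLF had 11.9, 21, 12.2, 15.4 and 31.5 CPM in Low 1 to 5, against 18.2 to 29.9 CPM in Control. The log2 fold change was -0.43 (SE 0.23, edgeR adjusted p = 0.57). Without Low 5 it was -0.72 (edgeR adjusted p = 0.049), in the 1 of 15 fits leaving out 1 library that called HLF. tefb had 22.2 and 27.2 CPM in Low 1 and 3 and 47 to 54.8 CPM in Low 2, 4 and 5, against 48.9 to 55.2 CPM in Control (-0.37, SE 0.23, edgeR adjusted p = 0.64). Low 1 and 3 were also the lowest Low libraries for nr1d2a and hlfa. In Low against Control all 6 PAR bZIP genes had fold changes below 0, from -0.43 to -0.01.

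**Figure D5:**
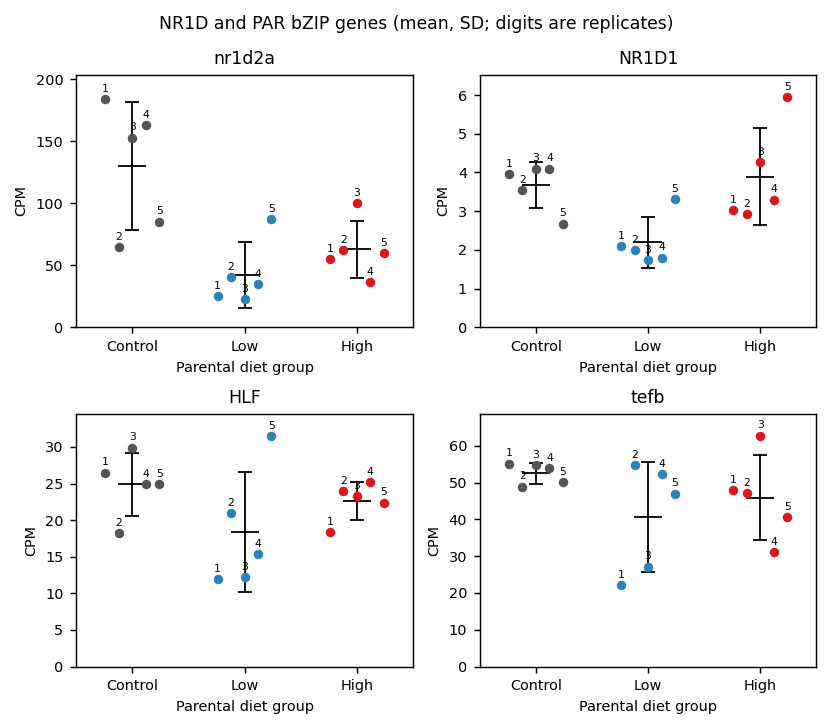
CPM of nr1d2a, NR1D1, HLF and tefb in each library, by parental diet group; digits are replicate numbers, horizontal bars are means and error bars SD (n = 5 each). Low 1 to 4 lie below all Control libraries for nr1d2a and NR1D1, Low 5 does not, and Low 1 and 3 are the lowest for HLF and tefb.

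BHLHE40 averaged 50.3 ± 17.8 CPM in Control, 70.6 ± 15.5 CPM in Low and 31.9 ± 4.06 CPM in High (SD, n = 5 each). Its log2 fold change of Low against Control was 0.49 (SE 0.20, edgeR adjusted p = 0.48) and did not pass. Among the ROR genes, RORA averaged 38.1 ± 4.02 CPM in High and 48.9 ± 6.63 CPM in Low (SD, n = 5 each; -0.36, SE 0.13, edgeR adjusted p = 0.13), while RORB ran from 10.6 to 19.2 CPM over all libraries.

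Other genes tied to the clock were taken from a list of regulators and a list of outputs and light-sensing genes. Of 27 tested regulators 1 fell and 26 did not pass in High against Low, where 1.04% of all genes fell. It was NCOR1 (ENSDARG00000035285), a corepressor that NR1D receptors recruit. It had 3.15, 2.03, 1.48, 2.14 and 2.78 CPM in High 1 to 5, against 2.3, 49, 19.7, 22.7 and 3.82 CPM in Low 1 to 5. High was uniformly low, and Low was split, with Low 1 and 5 near High (-3.07, SE 0.69, edgeR adjusted p = 0.045). In Control it ran from 12.8 to 43 CPM, and it was the 1 regulator that fell in High against Control too (-3.63, SE 0.70, edgeR adjusted p = 0.042), where 0.332% of all genes fell. Of the 15 fits that left out 1 library, 3 called it against Low and 4 against Control, with adjusted p up to 0.12 in both (without High 2 and without High 4).

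Of the 31 tested outputs and light-sensing genes 1 fell and 30 did not pass in High against Low, beside the same 1.04% of all genes. This was CAMK1G (ENSDARG00000008788), a calcium-dependent kinase gene, with 70.5, 46.5, 56.8, 28.5 and 43.7 CPM in High 1 to 5, against 168, 146, 119.5, 111 and 79.2 CPM in Low 1 to 5. No High library reached any Low library (-1.34, SE 0.27, edgeR adjusted p = 0.028). It was called in 8 of the 15 fits that left out 1 library, with the highest adjusted p, 0.083, without Low 1. Against Control, at 83.4 to 192 CPM, the edgeR adjusted p was 0.053, and none of the 31 passed. KLF9 (ENSDARG00000068194), a clock-controlled and glucocorticoid-responsive factor in mammals, had 3.82, 14.3, 3.25, 13.3 and 24 CPM in Low 1 to 5, against 86.9, 29, 47.4, 64.8 and 34.3 CPM in Control 1 to 5. All Low libraries lay below all Control ones, as in 1 of the 31 and in 0.813% of all genes. The log2 fold change of KLF9 was -2.16 (SE 0.58, edgeR adjusted p = 0.43). In Low against Control neither list had a gene that passed.

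Markers of other processes and cells moved beside the clock genes, and their part in the results was not tested. Immediate early genes answer within minutes to stimulation, as BHLHE40 and PER1 can in mammals. Of 19 tested, 3 fell in High against Low (FOS, egr4 and NPAS4) and 0 rose, where 1.04% of all genes fell. Fold changes of the 19 ran from -2.14 to 1.97, with 13 below 0 and 6 above. In 1 of them High lay wholly above Low and in 0 wholly below, against 1.88% and 2.43% of all genes. In that comparison 11 of the 19 had an unadjusted edgeR p under 0.05, against 21.9% of all genes. FOS was called in all 15 fits that left out 1 library, egr4 in 8 and NPAS4 in 2, with its highest adjusted p, 0.12, without Low 4. The mean log2 CPM of all 19 was 3.37 to 3.89 in High, 3.44 to 4.06 in Low and 3.69 to 3.98 in Control. High 3 was the highest of High and Low 5 the lowest of Low. Of 14 glucocorticoid-responsive genes 2 fell in High against Control (CEBPD in 15 and PDK2 in 5 of those fits), where 0.332% of all genes fell. The list had a mean log2 CPM of 4.42 to 5.08 in High and 4.27 to 5.38 in Low, against 4.85 to 5.92 in Control. In Low against Control 0 of the 14 passed, with 12 fold changes below 0, 2 above and a median of -0.64. There 7 had an unadjusted edgeR p under 0.05, against 9.53% of all genes. Low lay wholly below Control in 3, against 0.813% of all genes, and 1 of these 3 was KLF9, which is in both lists. High against Control was alike for the 14, with 13 fold changes below 0, 1 above and a median of -0.71. There 7 had an unadjusted edgeR p under 0.05, against 15.8% of all genes. High lay wholly below Control in 3, against 2.39% of all genes. Of 19 markers of photoreceptors and pineal 1 rose (ARR3) and 2 fell (opn1mw2 and GNAT2) in High against Low. Over all genes 0.672% rose and 1.04% fell there. ARR3, opn1mw2 and GNAT2 were called in 15, 13 and 12 of the fits that left out 1 library. Fold changes were below 0 in 17 of the 19 and above 0 in 2, with a median of -0.31. At an unadjusted edgeR p under 0.05 there were 7, against 21.9% of all genes. The list had a mean log2 CPM of 6.08 to 6.79 in High and 6.27 to 7.03 in Low. In High against Control ARR3 rose (1.29, edgeR adjusted p = 0.022) and GNAT2 fell (-0.82, edgeR adjusted p = 0.042). These were called in 11 and 4 of the 15 fits, and over all genes 0.191% rose and 0.332% fell. Neuronal markers ran from 6.89 to 7.17 in High and from 6.92 to 7.32 in Low. In High against Low 0 of 15 passed edgeR's test, against 1.71% of all genes. All 15 had fold changes below 0 there, with a median of -0.19. Against 21.9% of all genes, 4 of the 15 neuronal markers had an unadjusted edgeR p under 0.05. Low 5 was the lowest Low library for them, as it was for PER1 (ENSDARG00000012499), PER3 and BHLHE40. No marker in these lists was at 0 in all libraries.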

How the data were processed

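RNA of 15 whole-larva libraries was measured by sequencing. The deposited values are read counts, whole numbers per Ensembl gene in 1 table, which the authors had not normalized. Among tools, the submitters' processing notes list Trimmomatic, FastQC, MultiQC and DESeq2, and as builds GRCz11 and mm10. Aligner, counter, annotation and use of strand: not given in the sources used here. Thus reads of overlapping genes or of close copies, such as those of PER1, CRY1, CLOCK and BMAL1, cannot be told apart with certainty. Lines that name no gene (15, holding no counts) were left out.

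Columns were matched to samples by library name. Of the 46 names, 2 matched by identifier, 21 by symbol, 19 by capital symbol, and 4 did not match, 3 of them older names of BMAL genes and 1 nfil3-2. The members and lists were chosen with earlier results of these data known. Genes passing filterByExpr (22012) were fitted over all libraries with 1 coefficient per group by edgeR 4.0.16 in R 4.3.3 (TMM, robust quasi-likelihood, Benjamini-Hochberg over all genes, threshold 0.05); log2 CPM carry a prior count of 2, and SE is the fold change over the square root of F. Values per library are given by rule for members that passed, for the 2 given as identifiers and for the member of each role with the smallest p. Other members with such values, among them NR1D1, HLF, tefb and the CRY1 copy ENSDARG00000011583, were picked after their values were seen.

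On simulated counts (21839 genes, High against Control) 55% of 100 genes given a 2-fold and 91% of 100 given a 4-fold change passed. Of 151 genes called there, 5 had been left unchanged. The changed genes had a mean of at least 1 CPM. Counts were drawn independently for each gene, so tissue differences shared by many genes of a library were absent. High against Low was not simulated. Alternatives were RLE factors, other filters (none, or 1 CPM in 5 libraries), DESeq2 1.42.0, and limma 3.58.1 voom with a weight fitted to each library. Others were the 2 groups alone, a replicate block, a digestive covariate and each library left out.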

Additional observations from a re-analysis of the deposited data

Results flagged for a closer look

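In 5 of 30 sets of 5 libraries, the 10 clock genes named by rule in each of 3 groups, 1 library lay farther from the rest than Dixon's 95% critical value allows; chance flags about 1 set in 20. The PER1 copy ENSDARG00000012499 had 5.91 CPM in Low 5, against 10.2 to 10.8 CPM in the other Low libraries. nr1d2a had 87.5 CPM in Low 5, against 22.6 to 40.6 CPM in the others. BHLHE40 had 81.9 CPM in Control 2, against 39.2 to 44.7 CPM in the others. cry3a had 90.9 CPM in High 5, against 53 to 59 CPM in the others. rorcb had 158 CPM in Low 1, against 109.8 to 123 CPM in the others.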

How the results depend on the processing

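In High against Low the count of 4 clock genes was 2 with the 2 groups fitted alone, 2 with the replicate number as a block, 1 with the digestive covariate, 7 by DESeq2, 12 by limma voom and 11 leaving out Low 5 and High 3 (1666, 4656 and 4402 of all genes, against 377), and 0 to 11 with 1 library left out. In High against Control the count of 0 was 1 by limma voom, 6 by DESeq2 and 6 leaving out Low 5 and High 3, and 0 to 1 with 1 library left out. In Low against Control the count of 0 was 4 by limma voom, 1 by DESeq2 and 2 leaving out Low 5 and High 3, and 0 to 3 with 1 library left out. The other settings kept these counts within 1.5 times. The replicate block gave 0 calls in both comparisons with Control; same-numbered libraries share only a number, with deviations correlated at -0.54 to 0.54, and not every library correlated best with its own. Among the 10 genes named by rule, signs turned in Low against Control, for values near 0: dbpb (-0.07) was 0.30 by limma voom and 0.13 leaving out Low 5 and High 3, and leaving out those 2 libraries nfil3-5 (0.06) was -0.04 and cry3a (0.02) 0.00. With 1 library left out, dbpb ran from -0.27 to 0.14, nfil3-5 from -0.04 to 0.14, cry3a from -0.04 to 0.07, rorcb from -0.02 to 0.17, PER3 from 0.00 to 0.27 and the BMAL1 copy ENSDARG00000035732 from -0.06 to 0.03. Other members near 0 there also turned, such as cry5 (-0.01), which was 0.07 with the digestive covariate. The cause of these shifts was not tested. Depth limits dbpb and the scarcer PER1 copy, at 10 to 74 and 11 to 50 counts per library.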
